A study of Mus musculus with 35 samples.

Results

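Gene expression was compared between day 14 and day 7 in sorted cells of primary pancreatic tumors labelled Smad4 on. These were 5 of the 35 RNA-seq libraries in the series, 2 of day 7 and 3 of day 14, taken by their column names, with every gene of the count table. The tumors grew from KC-shSmad4 cells, mouse pancreatic ductal adenocarcinoma (PDAC) cells that carry *Ptf1a*-Cre, a constitutive mKate2 reporter and a GFP-linked shRNA against *Smad4* that is made under doxycycline (Dox). The cells were injected into the pancreas of female *Foxn1* nu (athymic nude) mice aged 6 to 8 weeks and fed Dox chow, and mKate2+ cells were sorted by flow cytometry. By the label on, Dox chow had been withdrawn 4 weeks after injection, and the tumors were taken 7 or 14 days later. Those labelled off had stayed on Dox and were taken on the same days. All mice carried transplanted KC-shSmad4 cells and lacked the thymus. Which cell line, and which of the shRNAs, went into each library is not given in the sources used here, and neither is a library's origin from a separate mouse beyond the mouse number in its name. P-values therefore measure only the spread between these libraries.

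SMAD4 is the common partner of the receptor-activated SMADs, with which it carries TGF-β signals to the genome. TGF-β signaling is known in PDAC for arresting or killing epithelial cells and for driving epithelial–mesenchymal transition, in which E-cadherin is lost and matrix and mesenchymal genes are switched on. The exocrine pancreas around such tumors is built of acinar cells, which secrete digestive enzymes, and of ducts that carry them off, and PDAC cells often express genes of the stomach lining as well.

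The labels did not match *Smad4* mRNA. *Smad4* (chr18:73639009-73703780, GRCm38) was at 22.4 and 20.0 CPM (read counts scaled to a common library total with TMM factors over all libraries) in the libraries labelled on of day 7 and at 19.3, 22.3 and 21.4 on day 14. The libraries labelled off were at 94.5 to 114 CPM on day 7 and at 101 and 109 on day 14, so that the libraries labelled on held the lower *Smad4* mRNA on both days. "Labelled on" and "labelled off" are used here as deposited. Within the libraries labelled on, the day difference did not pass the test used below (log2 fold change −0.01, standard error 0.13, adjusted p = 0.968 in the quasi-likelihood test of edgeR, adjusted after Benjamini and Hochberg over all genes tested), and a setting or left-out library turned the sign of this small value. The 5 libraries held 12.2 to 17.3 M counts on genes, a depth at which 3 counts came to between 0.17 and 0.233 CPM. Their log2 CPM values correlated at 0.966 to 0.991 across genes, lowest between replicate 1 of day 7 and replicate 1 of day 14, and no 2 of them were identical.

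From day 7 to day 14, the genes that rose included digestive enzymes, secreted mucosal proteins and epithelial membrane proteins, and those that fell included matrix proteins and an activin antagonist. A gene was called where it changed by over 2-fold with an adjusted p under 0.05. Of 14404 genes tested, 20 were called higher on day 14 (0.139%) and 7 lower (0.0486%) by edgeR. The 20 genes were *Bpifb1*, *Olfm4*, *Ccl6*, *Mcpt1*, *Tff2*, *Cybrd1*, *Fxyd3*, *Pnliprp1*, *Crp*, *Ctrb1*, *Prss2*, *Gsta4*, *Clu*, *Cftr*, *Crb3*, *Crisp1*, *Samd9l*, *Slfn2*, *Prr15l* and *2310057J18Rik*. The 7 were *Tmem47*, *Fst*, *Clca3a1*, *Rcan2*, *Col7a1*, *Ccdc80* and *Adgrl1*. Regardless of fold, 38 genes were higher (0.264%) and 37 lower (0.257%) at an adjusted p under 0.05, and 1548 (10.7%) and 1852 (12.9%) at an unadjusted p under 0.05, here named nominally higher and nominally lower. Nominal counts within the gene lists below are to be set beside these shares of all genes. In bulk RNA, more cells of a type and more RNA per cell cannot be told apart.

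The number of calls rested on single libraries. DESeq2, the tool of the study, called 169 genes higher (1.17%) and 76 lower (0.528%) on the same libraries, among them all 27. Without replicate 1 of day 7, edgeR called 4 higher and 2 lower, and without replicate 2 of day 7 it called 7 and 8. Leaving out replicate 1 of day 14 gave 54 and 13, and leaving out replicate 2 or replicate 3 of day 14 gave 0 and 0, with 1063 and 1135 genes nominally higher and 1286 and 1481 nominally lower. All 27 genes kept their direction in each of these fits. As their days did not overlap, leaving out 1 library could hardly turn a direction. In the fit of all 35 libraries, whose spread includes the metastases, 0 genes were called in either direction, with 432 and 477 at nominal significance. Many genes lay close to the threshold, since 41 more changed by over 2-fold with an adjusted p between 0.05 and 0.06, such as *Gp2* at a log2 fold change of 1.33 and *Slit2* at −1.02 (both with adjusted p = 0.0516 from edgeR). Just inside the fold limit was *2310057J18Rik* at 1.02, and just outside it *Sh2d4a* at 0.99.

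**Figure D1:**
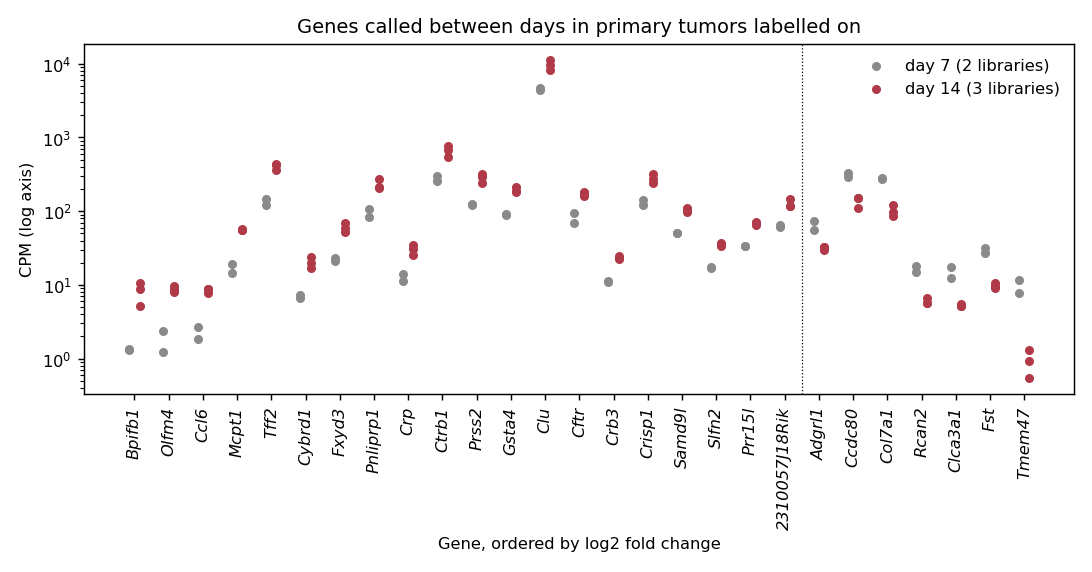
Level of each of the 27 called genes in every library labelled on, in CPM on a log axis, with genes ordered by log2 fold change (day 14 over day 7) and 1 point per library (gray, 2 libraries of day 7; red, 3 of day 14). Left of the dotted line are the 20 genes called higher and right of it the 7 called lower, and the 2 days overlap for none of them, as for 19.9% and 22.4% of all genes tested that were higher or lower on day 14.

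Acinar digestive enzymes made up 3 of the 20 genes called higher on day 14. *Ctrb1* (chymotrypsinogen B, chr8:111686519-111691010) was at 253 and 298 CPM on day 7 and at 765, 667 and 543 CPM on day 14. *Prss2* (an anionic trypsinogen, chr6:41521787-41525079) was at 121 and 123 CPM and then at 293, 318 and 240. *Pnliprp1* (a pancreatic lipase-related protein, chr19:58728887-58744169) was at 108 and 84.7 CPM and then at 210, 275 and 208. Each of the 3 was higher in every library of day 14 than in any of day 7, as were 19.9% of all genes tested. This was a condition of naming them among the largest changes. The 3 enzymes rose 2.39-fold, 2.32-fold and 2.40-fold (log2 fold changes 1.26, 1.22 and 1.27, standard errors 0.16, 0.13 and 0.17, adjusted p = 0.0399, 0.0345 and 0.0495, edgeR). Trypsinogen genes are near-identical copies of each other, so that the split of reads among *Prss2*, *Try4* and *Try5* is uncertain.

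Of 29 acinar genes listed, 26 could be tested, 3 were called higher and 0 lower. Of the 26, 23 were nominally higher and 0 nominally lower, against 10.7% and 12.9% of all genes tested. Those 23 also had days that did not overlap, against 19.9% of all genes tested that were higher without overlap. DESeq2 called 18 of the acinar genes higher, among them *Cpa1*, *Cel*, *Clps*, *Reg1* and *Cela2a*. The median log2 fold change of the 26 was 1.20, against −0.0045 over all genes tested. The summed level of the list was 1372 and 1734 CPM on day 7 and 3483, 4023 and 3111 CPM on day 14. In the primary tumors labelled off, it was 3423 to 5526 CPM on day 7 and 1751 and 5700 CPM on day 14. In metastases labelled on, the list summed to 229.7 to 1115 CPM in the liver on day 7 and 364 to 928 CPM on day 14, and to 165 to 435 CPM and 469 to 1106 CPM in the lungs. *Ctrb1* averaged 0.232 and 0.0746 CPM in the liver and 0.0309 and 0.0998 CPM in the lungs on days 7 and 14. Whether the enzymes came from tumor cells or from acinar RNA of the surrounding pancreas was not tested.

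Promoters were read for the 16 genes called higher and the 5 called lower that have a window in RefSeq (GRCm38.p6, 250 bases before to 50 after the start, read 5′ to 3′ on the gene's strand). TATAAA, the core of the TATA box that sets the start site of many strongly regulated genes, was in 4 of the 16 windows of genes called higher, in 0 of the 5 of genes called lower and in 7.56% of the 10649 windows of tested genes. It was in 8 of the 20 windows of tested acinar genes. The 4 windows of called genes are shown with the TATA sequence, searched on both strands, in capitals.
Prss2, plus strand, chr6:41521526-41521825: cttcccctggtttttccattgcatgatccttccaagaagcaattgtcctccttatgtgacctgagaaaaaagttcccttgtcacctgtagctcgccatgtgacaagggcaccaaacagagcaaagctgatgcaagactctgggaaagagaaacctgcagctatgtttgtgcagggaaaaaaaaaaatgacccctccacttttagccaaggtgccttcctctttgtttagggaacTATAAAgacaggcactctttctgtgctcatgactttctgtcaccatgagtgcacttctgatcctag
Mcpt1, plus strand, chr14:56017714-56018013: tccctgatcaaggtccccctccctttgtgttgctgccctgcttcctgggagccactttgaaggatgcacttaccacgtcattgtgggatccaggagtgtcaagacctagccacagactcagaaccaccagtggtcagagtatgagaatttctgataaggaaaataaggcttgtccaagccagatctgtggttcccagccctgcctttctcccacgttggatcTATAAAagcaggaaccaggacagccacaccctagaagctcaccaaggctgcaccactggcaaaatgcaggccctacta
Crp, plus strand, chr1:172697806-172698105: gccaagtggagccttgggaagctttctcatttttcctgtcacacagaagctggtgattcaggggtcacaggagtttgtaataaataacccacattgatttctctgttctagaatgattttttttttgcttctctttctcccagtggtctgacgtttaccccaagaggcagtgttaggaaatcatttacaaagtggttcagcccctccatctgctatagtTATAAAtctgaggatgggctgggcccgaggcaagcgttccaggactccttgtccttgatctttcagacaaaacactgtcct
Crisp1, minus strand, chr17:40319158-40319457: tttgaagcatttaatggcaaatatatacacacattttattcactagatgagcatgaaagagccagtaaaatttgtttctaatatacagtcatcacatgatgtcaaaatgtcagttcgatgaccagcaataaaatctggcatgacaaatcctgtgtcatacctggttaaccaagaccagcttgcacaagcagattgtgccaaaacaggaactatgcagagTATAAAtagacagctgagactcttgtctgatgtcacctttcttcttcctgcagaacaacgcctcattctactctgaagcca
The AP-1 site TGAGTCA, on either strand, was in 1 of the 16 windows of genes called higher (*Cybrd1*), in 0 of the 5 of genes called lower and in 3.93% of all windows.

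Genes of the stomach lining and of mucosal secretion were also higher on day 14. *Tff2*, a trefoil peptide of gastric mucous neck cells (chr17:31141049-31144282), was at 146 and 122 CPM on day 7 and at 360, 433 and 419 CPM on day 14. It rose 3.04-fold (standard error 0.13 on the log2 scale, adjusted p = 0.0245, edgeR). *Bpifb1*, a secreted defense protein of mucosal epithelia (chr2:154190818-154220369), rose from 1.33 and 1.30 CPM to 5.24, 10.5 and 8.86, a log2 fold change of 2.64. *Olfm4*, a secreted glycoprotein of intestinal crypts, rose from 2.39 and 1.24 CPM to 8.78, 9.71 and 7.93, a log2 fold change of 2.29. Both were low and just passed the test (adjusted p = 0.0495, edgeR). Both also varied widely within day 7 of the label off, *Bpifb1* at 5.47, 3.18 and 0.241 CPM and *Olfm4* at 8.35, 0.752 and 1.39 CPM. Of 22 gastric and mucinous genes tested, *Tff2* was called, 9 were nominally higher and 0 nominally lower, and the median log2 fold change was 0.80. DESeq2 called 6 of them higher (*Anxa10*, *Ctse*, *Gkn1*, *Gkn3*, *Tff2* and *Tff3*) and 0 lower.

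Ductal and epithelial identity genes were mostly higher, with 1 called by edgeR and 2 by DESeq2. *Cftr*, the chloride channel of pancreatic ducts, was at 69.2 and 94.5 CPM on day 7 and at 161, 175 and 180 CPM on day 14 (log2 fold change 1.08, standard error 0.14, adjusted p = 0.0451, edgeR). *Cdh1*, which encodes E-cadherin, was at 384 and 374 CPM and then at 658, 651 and 639 CPM. It rose by less than 2-fold (log2 fold change 0.78, standard error 0.08, adjusted p = 0.0345, edgeR), as did *Ehf*, an epithelial ETS factor, at 0.79 (adjusted p = 0.0495). Outside the list of identity genes, the epithelial surface and brush border genes *Cd24a* and *Vil1* were higher by 0.98 and 0.97, each with an adjusted p of 0.0399 from edgeR. *Erbb3*, a receptor of the EGFR family taken from the RAS-MAPK list, was higher by 0.81 (adjusted p = 0.0351, edgeR). Of the 22 genes of that list, 1 was nominally higher and 7 nominally lower. Among 24 identity genes tested, 13 were nominally higher and 0 nominally lower, with a median log2 fold change of 0.66 (0.29 under the label off). Their summed level was 15086 and 16221 CPM on day 7 and 22317, 19359 and 17692 CPM on day 14. Markers of fibroblasts summed to more than these on day 7, at 27804 and 25793 CPM.

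The other called genes that rose were secreted, membrane and immune-related. *Clu*, a secreted chaperone, was at 4759 and 4461 CPM on day 7 and at 11278, 9749 and 8245 CPM on day 14. *Mcpt1*, a mast cell protease, rose 3.32-fold from 19.1 and 14.7 CPM to 56.6, 55.8 and 55.1 CPM (adjusted p = 0.0245, edgeR). Under the label off *Mcpt1* was at 68.7, 59.7 and 39.7 CPM on day 7 and at 65.4 and 58.8 CPM on day 14. The day 7 libraries labelled on were thus its lowest among the primary tumors. *Ccl6*, a chemokine of myeloid cells, rose 3.67-fold from 1.86 and 2.71 CPM to 7.83, 8.72 and 8.78. *Samd9l* and *Slfn2*, both inducible by interferon, rose by log2 fold changes of 1.05 and 1.04. Of 34 interferon-stimulated genes listed apart from them, edgeR called 0 and DESeq2 called *Oas1a* higher, 5 were nominally higher and 0 nominally lower, and the median was 0.22. *Cybrd1* (a ferric reductase), *Fxyd3* (a regulator of the sodium pump), *Gsta4* (a glutathione transferase), *Crp* (C-reactive protein) and *Crb3* (a polarity protein) rose by 1.53, 1.42, 1.13, 1.26 and 1.07. *Crisp1*, *Prr15l* and *2310057J18Rik* rose by 1.06, 1.02 and 1.02.

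**Figure D2:**
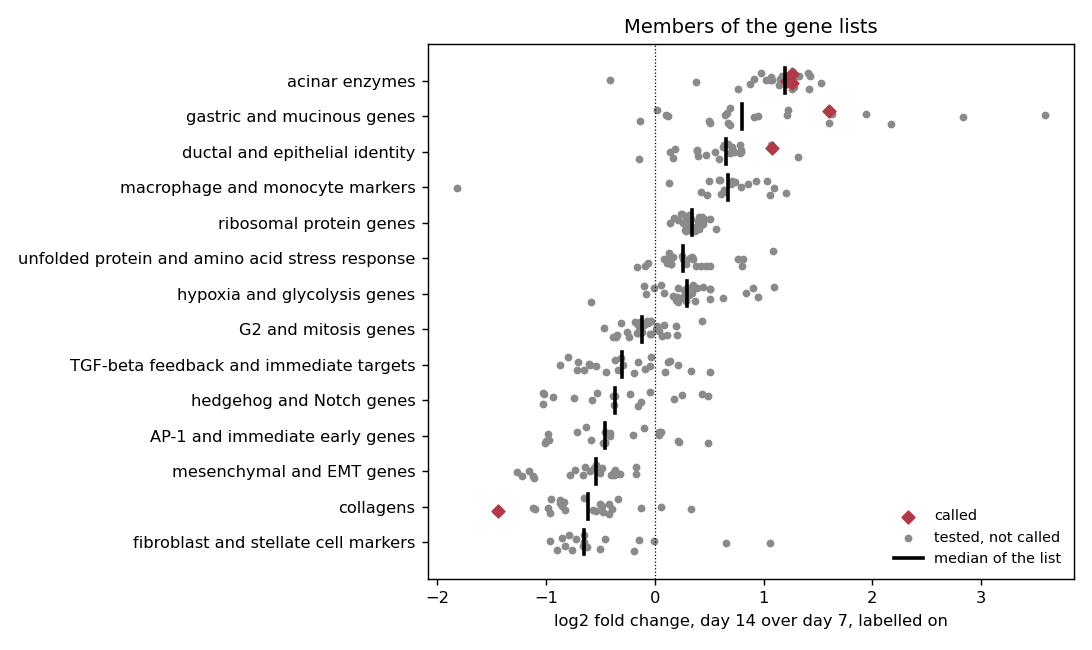
Log2 fold change (day 14 over day 7, libraries labelled on) of each tested member of 14 gene lists, with called genes as red diamonds, other tested genes as gray points and the median of each list as a black bar. Acinar, gastric and epithelial genes lie mostly right of 0, with medians of 1.20, 0.80 and 0.66, and mesenchymal genes, collagens and fibroblast markers mostly left of it, with medians of −0.54, −0.61 and −0.65.

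Among the genes that fell, *Tmem47*, a small membrane protein of cell junctions (chrX:81070698-81097872), was at 7.85 and 11.5 CPM on day 7 and at 1.29, 0.918 and 0.544 CPM on day 14. This fall of 3.37 on the log2 scale (standard error 0.37) had an adjusted p of 0.0345 by edgeR. *Fst*, which encodes follistatin, an antagonist of activins (chr13:114452262-114458949), fell from 31.8 and 26.9 CPM to 9.12, 9.64 and 10.7 CPM, 2.98-fold. *Col7a1*, the collagen of anchoring fibrils (chr9:108953586-108984875), fell from 272 and 284 CPM to 87.3, 97.8 and 122 CPM, 2.71-fold (adjusted p = 0.0345, edgeR). In each case the days did not overlap, which was a condition of naming them among the largest changes. Of all genes tested, 22.4% were lower without overlap. *Ccdc80*, a secreted matrix-associated protein, fell by 1.15 on the log2 scale, *Rcan2*, a regulator of calcineurin, by 1.45, *Clca3a1*, a calcium-activated chloride channel regulator, by 1.51, and *Adgrl1*, an adhesion receptor, by 1.03. Below 2-fold, *Per1* (a clock gene), *Heg1* (a membrane mucin-like receptor), *Phlpp1* (a phosphatase of AKT), *Sgk1* (a kinase induced by serum and steroids) and *Tead1* (a partner of YAP) had log2 fold changes of −0.78, −0.71, −0.75, −0.65 and −0.75, with adjusted p-values of 0.0348 to 0.0351 (edgeR).

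Mesenchymal genes and collagens were lower on day 14 with few calls. All 24 mesenchymal genes tested had a negative log2 fold change, 12 were nominally lower and 0 nominally higher, the median was −0.54, and 0 were called. *Loxl2*, an enzyme that crosslinks collagen, was at 380 and 332 CPM on day 7 and at 186, 216 and 217 CPM on day 14, and fell by less than 2-fold (−0.78, adjusted p = 0.0495, edgeR). *Zeb1*, a repressor of E-cadherin, was at 163 and 126 CPM and then at 72.8, 95.5 and 91.5 CPM, which did not pass (−0.73, adjusted p = 0.0724, edgeR), and *Fn1* (fibronectin) was at −0.66 with an adjusted p of 0.0566. Of 24 collagens tested, *Col7a1* was called, 11 were nominally lower and 0 nominally higher, and the median was −0.61. DESeq2 called 4 mesenchymal genes (*Col5a1*, *Fbn1*, *Lox* and *Snai1*) and 2 collagens (*Col5a1* and *Col7a1*) lower.

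Fibroblast markers moved with these genes. Their summed level over 18 genes, none of them at 0, was 27804 and 25793 CPM on day 7 and 10258, 15284 and 19574 CPM on day 14. It was 14759 to 18808 CPM in the primary tumors labelled off on day 7 and 15230 and 14434 CPM on day 14. In metastases labelled on, the sum was 478 to 3676 CPM in the liver and 187 to 1757 CPM in the lungs over both days. Of the 18 markers, 16 had a negative log2 fold change, 5 were nominally lower and 0 nominally higher, and 0 were called. *Col3a1*, for example, was at −0.96 with an adjusted p of 0.133 (edgeR), and its lowest library was replicate 1 of day 14. Collagens and fibroblast markers shared 4 genes, and the part of fibroblast RNA in the lower matrix genes was not tested.

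**Figure D3:**
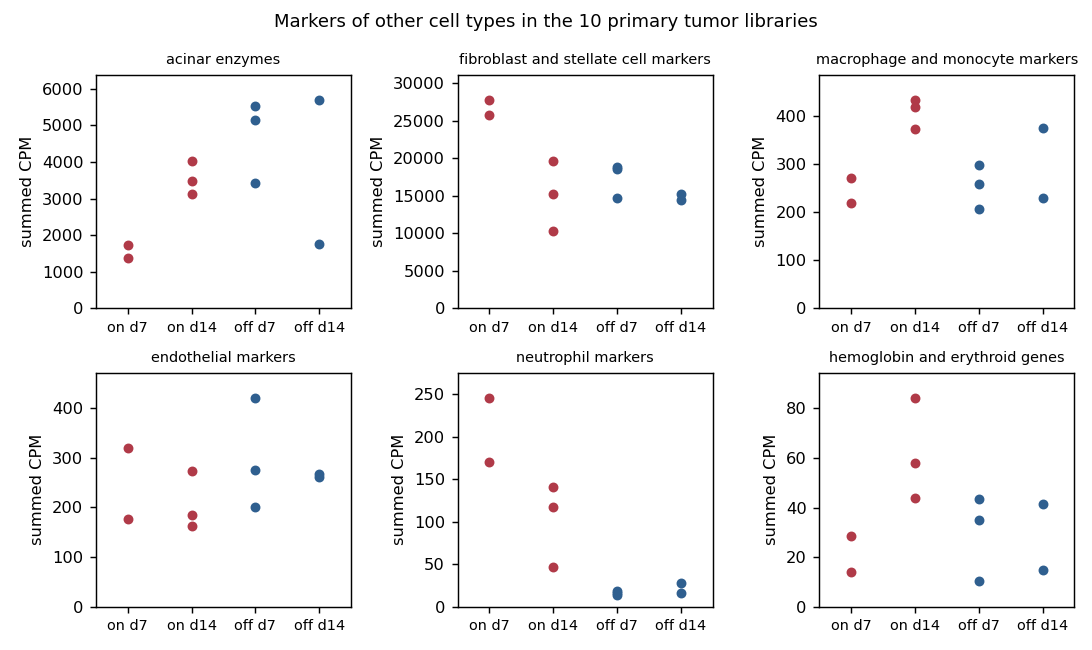
Summed CPM of the marker lists of 6 other cell types in the 10 primary tumor libraries, with 1 point per library, red for those labelled on and blue for those labelled off, and axes that start at 0. From day 7 to day 14 of the label on, acinar, macrophage and erythroid sums are higher in every library, fibroblast and neutrophil sums lower, and endothelial sums overlap. The neutrophil sum is mostly *Mmp9*.

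Markers of blood cells gave small sums. The 20 macrophage and monocyte markers summed to 218 and 271 CPM on day 7 and to 372, 417 and 433 CPM on day 14. Of these genes, 19 had a positive log2 fold change, 9 were nominally higher and 1 nominally lower, and edgeR called 0, whereas DESeq2 called *C1qb*, *Lyz2* and *Tyrobp* higher and *Cd163* lower. *C1qb*, a complement component of macrophages, was at 1.21 (adjusted p = 0.0609), and *Lyz2* (lysozyme) at 1.06 (adjusted p = 0.0942, both edgeR). Hemoglobin and erythroid genes summed to 28.5 and 14.0 CPM on day 7 and to 84.1, 43.8 and 58.0 CPM on day 14, and DESeq2 called *Hba-a1*, *Hbb-bs* and *Hbb-bt* higher. The neutrophil sum of 246 and 171 CPM on day 7 and 46.6, 118 and 141 CPM on day 14 was mostly *Mmp9*, which was at 238 and 156 CPM and then at 38.5, 108 and 131 CPM, and *Mpo* was at 0 in all 5 libraries. Of 5 neutrophil markers tested, 2 had a positive and 3 a negative log2 fold change. The 18 B, T and NK cell markers summed to 11.1 and 20.5 CPM on day 7 and to 15.4, 13.8 and 9.95 CPM on day 14. Of these, the T-cell genes *Cd3e*, *Cd3g* and *Cd8a* were at 0 in all 5 libraries. Endothelial markers summed to 177 and 319 CPM and then to 273, 162 and 185 CPM, with overlapping days. Of the 14 markers, 10 had a positive log2 fold change, 5 were nominally higher and 0 nominally lower, with a median of 0.73. By edgeR 0 of them were called, and DESeq2 called *Pecam1* higher. The part of myeloid cells in the levels of *Ccl6* was not tested.

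TGF-β targets and feedback genes were on the lower side. The fibroblast sum was also lower in every library of day 14, and its part in this list and in the hedgehog, Notch and Wnt lists was not tested. Of 24 tested, 0 were called, 9 were nominally lower and 0 nominally higher, and the median log2 fold change was −0.30. *Ski*, a SMAD corepressor, was at 243 and 229 CPM on day 7 and at 152, 148 and 165 CPM on day 14 (−0.60, adjusted p = 0.0495, edgeR). *Tgfbr2*, the type II receptor, was at −0.80 (adjusted p = 0.0907), *Pmepa1*, a feedback inhibitor, at −0.60 (adjusted p = 0.0576) and *Smad7*, an inhibitory SMAD, at −0.37 (adjusted p = 0.103, all edgeR). Of the 16 genes that the study follows, chosen by it in part on these samples, 0 were called, 7 were nominally lower and 1 nominally higher. *Wisp1*, a secreted matricellular protein, was the lowest of them at −1.04 (127 and 102 CPM against 43.9, 60.1 and 62.9, adjusted p = 0.0584), and DESeq2 called it. *Runx1*, *Runx2* and *Klf4* were at −0.42, −0.53 and −0.71, with adjusted p-values of 0.0566 to 0.0602, and *Id1* at 0.52 (adjusted p = 0.067, edgeR).

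Immediate early, Notch and hedgehog genes also leaned lower, and Wnt genes went both ways. Of 21 AP-1 and immediate early genes tested, edgeR called 0 and DESeq2 called *Egr2* lower, 13 were nominally lower and 2 nominally higher, and the median was −0.46. *Egr2* was at 89.8 and 73.1 CPM on day 7 and at 39.9, 47.6 and 33.5 CPM on day 14 (−1.01, adjusted p = 0.0516, edgeR), and *Fosb* at −0.59 (adjusted p = 0.0584). Among 18 hedgehog and Notch genes, 9 were nominally lower and 0 nominally higher, and DESeq2 called *Notch3* and *Gli3* lower, at −1.03 and −1.01 here. Of 22 Wnt pathway genes, 5 were nominally lower and 2 nominally higher, against 12.9% and 10.7% of all genes tested. Their median was −0.32, and DESeq2 called *Dkk3* lower. *Wnt7b*, an epithelial ligand, was higher by 0.56 (adjusted p = 0.0474), whereas *Wnt5a*, at −0.81, and *Axin2*, a target of the pathway, at −0.73, did not pass (adjusted p = 0.0567 and 0.0711, edgeR).

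Ribosomal protein genes were higher by a small and even amount. All 34 tested had a positive log2 fold change, from 0.14 to 0.56, with a median of 0.34, and their days did not overlap, whereas 30 were nominally higher and 0 were called. Of all genes tested, 19.9% were higher without overlap and 10.7% nominally higher. Under the label off the median of the ribosomal protein genes was larger, at 0.56. *Rpl32* was at 826 and 844 CPM on day 7 and at 1269, 1260.0 and 1162 CPM on day 14 (0.56, adjusted p = 0.0516, edgeR). Nuclear genes of oxidative phosphorylation had a median of 0.22 with 19 of 36 nominally higher, and a median of 0.25 under the label off. Transcript length moved with the day difference across genes. With the tested genes in 5 equal groups by length, the median log2 fold change went from 0.21 in the group up to 2158 bases to −0.18 in the group from 7137 bases, and in the primary tumors labelled off from 0.19 to −0.16. Spearman's rho between length and the day difference was −0.34 over 14404 genes that share the same 5 libraries. Genes called higher had a median transcript length of 1827 bases and those called lower of 4025 bases, against 4107 bases over all tested. Regardless of fold, the 38 genes higher at an adjusted p under 0.05 had a median of 3060.5 bases and the 37 lower of 8541 bases, and the part of length in the calls was not tested.

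**Figure D4:**
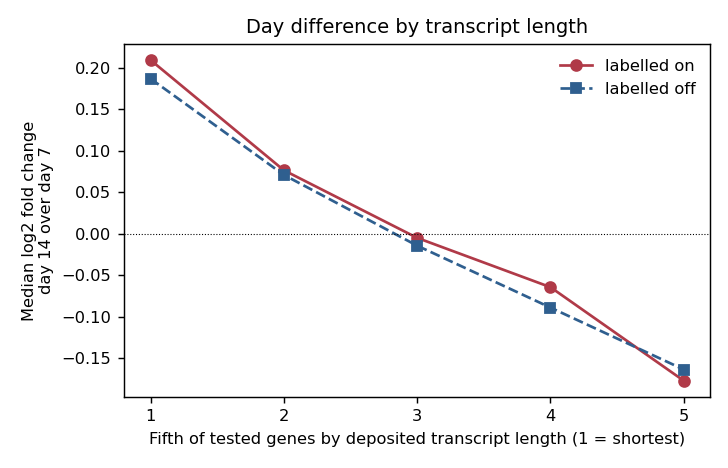
Median log2 fold change of day 14 over day 7 in 5 equal groups of the tested genes by deposited transcript length, for libraries labelled on (red, solid) and labelled off (blue, dashed). Both lines run downward, from 0.21 and 0.19 in the group of shortest transcripts to −0.18 and −0.16 in that of the longest.

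Primary tumors labelled off gave the same comparison at the higher *Smad4* mRNA, with 3 libraries of day 7 and 2 of day 14. Of 14269 genes tested there, 87 were called higher (0.61%) and 31 lower (0.217%), and these numbers also depended on single libraries, at 168 and 52 without replicate 1 of day 7, 219 and 102 without replicate 2 and 0 and 0 without replicate 3 or either library of day 14. None of the 27 genes called under the label on was among them. Of the 20 genes higher under the label on, 14 had a positive log2 fold change under the label off, against 60.8% of all genes that were higher under the label on, and of the 7 lower genes 5 had a negative one, against 63.2%. The change of all 27 was larger in size under the label on, the label by which they were chosen. *Cftr* was at −0.78 under the label off (88.0, 57.3 and 59.0 CPM, then 38.1 and 41.4 CPM), and its difference between labels was 1.88 with an adjusted p of 0.0652, the lowest among the 20 (edgeR's test of the interaction of day and label over 15093 genes). Acinar enzymes had a median log2 fold change of −0.32 under the label off, and 0 of them passed the test of the difference.

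Whether the change over time differed between labels was tested in 1 fit of the 10 primary tumor libraries. By this test 1 gene had a higher log2 fold change under the label on (0.00663%) and 8 a lower one (0.053%), with 1235 (8.18%) and 1076 (7.13%) at an unadjusted p under 0.05, and none of the 27 genes was among them. *Egr2*, an immediate early transcription factor, was at 89.8 and 73.1 CPM and then at 39.9, 47.6 and 33.5 CPM under the label on, and at 44.1, 45.0 and 45.6 CPM and then 84.3 and 78.8 CPM under the label off. Its day differences of −1.01 and 0.86 thus ran in opposite directions and differed by −1.85 (standard error 0.19, adjusted p = 0.0216, edgeR). *Sgk1* was at 139 and 134 CPM and then 87.8, 88.8 and 84.2 CPM under the label on, and at 87.6, 84.4 and 106 CPM and then 137 and 143 CPM under the label off, a difference of −1.22 with the same adjusted p. *Tubb3*, a tubulin of neurons, differed by 2.09 (adjusted p = 0.0307, edgeR), with day differences of 0.66 and −1.41. Leaving out replicate 1 of day 7 of the label on left 0 and 2 genes, replicate 2 of day 7 gave 4 and 25, and leaving out replicate 1, 2 or 3 of day 14 gave 0 and 5, 0 and 1, and 1 and 4.

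**Figure D5:**
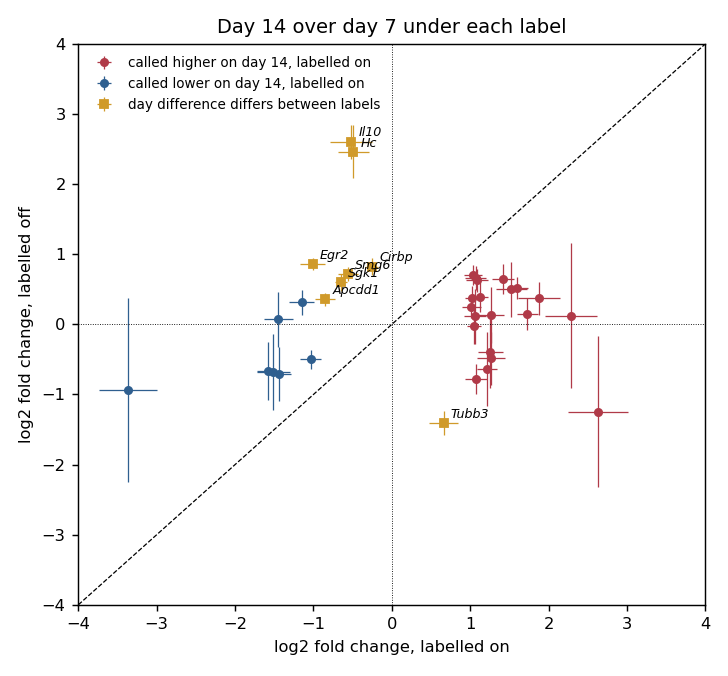
Log2 fold change of day 14 over day 7 under the label on (horizontal) and under the label off (vertical) for the 20 genes called higher (red circles) and the 7 called lower (blue circles) under the label on and 8 genes whose day difference differed between labels (orange squares, named), with standard errors as bars and equality as the dashed line. The 27 called genes lie closer to 0 on the vertical than on the horizontal axis, and 7 of the 8 named genes lie at negative values of the label on and positive values of the label off, with *Tubb3* opposite.

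Metastases labelled on were compared with the primary tumors for the same day difference in 1 fit of 17 libraries. With edgeR, 0 of 16751 genes (0%) had a day difference that differed from the liver or from the lungs by the call rule. At an unadjusted p under 0.05, the day difference was higher in the primary tumors than in the liver for 500 genes (2.98%) and lower for 457 (2.73%), and for the lungs the numbers were 296 (1.77%) and 434 (2.59%). Of the 17 libraries, 5 of metastases held counts of the mitochondrial gene *mt-Co3*, which was at 0 in all others. Without these 5, which left 1 lung library of day 7, 0 genes were called and the numbers became 1194 and 967 for the liver and 526 and 1040 for the lungs (edgeR). DESeq2 gave 9 and 1 for the liver and 0 and 0 for the lungs. Of the 20 genes higher in primary tumors, 9 had a positive log2 fold change in the liver (against 54.2% of all genes higher in primary tumors) and 18 in the lungs (against 58.9%). *Tff2* was at −0.81 in the liver, with means of 2290.5 and 1307 CPM on days 7 and 14, and at 0.98 in the lungs, with means of 412 and 812 CPM, and neither difference from the primary tumors passed (adjusted p = 0.783 and 1, edgeR). The spread between libraries was larger in this fit (biological coefficient of variation 0.35) than in the fit of the 5 libraries (0.169).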

How the data were processed

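RNA-seq libraries (poly(A)-selected, stranded TruSeq, 75-base single-end reads) were trimmed by the authors with Trimmomatic 0.36, aligned to GRCm38 with STAR 2.5.3a and counted per gene with featureCounts 1.6.3, per the labels, and the strand setting of the counting is not given in the sources used here. The deposited values are raw counts of 53465 genes, whole numbers without normalization. Columns were joined to groups by their titles. Levels are CPM scaled by edgeR's TMM factors over all 35 libraries. Day 14 was compared with day 7 in the 5 libraries labelled on with edgeR 4.0.16 (filterByExpr with a minimum count of 10, TMM, robust quasi-likelihood test, Benjamini-Hochberg adjustment, R 4.3.3). Standard errors are the log2 fold change divided by the root of its F value. Genes with over 2-fold change and adjusted p under 0.05 were called, thresholds taken from the study's methods, which used DESeq2 (1.42.0 here, as an alternative). The interaction of day with label was fitted in 10 libraries, and of day with organ in the 17 labelled on. Both tools were also run on simulated counts with planted changes, a fixed spread between libraries and no outlying library. That run does not show how far the calls rest on single libraries. Genes were named by rule: the genes the study follows, the 12 called with the largest change in each direction with at least 5 CPM, completed by the lowest p-values, without overlap between days and without predicted names, up to 5 genes per list with the lowest p-values and the 6 lowest p-values of the label difference. The other called genes, *Cd24a*, *Vil1*, *Slit2*, *Sh2d4a*, *Mpo*, T-cell genes and the names of genes called by DESeq2 were added after their values were seen. Of the genes called for the difference between labels, 1 is not reported here. The comparison and the gene lists were chosen with earlier results of these data known.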

Additional observations from a re-analysis of the deposited data

Results flagged for a closer look

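Of 15093 genes, 1 had a higher and 8 a lower day difference under the label on than under the label off in primary tumors, by edgeR's test of the interaction with an adjusted p under 0.05. Each gene given here is flagged because its change over time differed between labels. The log2 difference was −1.22 for *Sgk1*, −1.85 for *Egr2*, −3.10 for *Il10* (an anti-inflammatory cytokine), 2.09 for *Tubb3*, −1.25 for *Smg6* (a nuclease of nonsense-mediated decay), −1.06 for *Cirbp* (a cold-inducible RNA-binding protein), −1.18 for *Apcdd1* (an inhibitor of Wnt signaling) and −2.93 for *Hc* (complement C5). *Il10* was at 19.1 and 27.6 CPM and then 11.8, 20.6 and 16.4 CPM under the label on. Under the label off it was at 3.41, 2.60 and 2.17 CPM and then at 18.9 and 14.4 CPM, so that on day 14 the labels overlapped. *Hc* went from 0.412, 0.636 and 0.483 CPM to 3.51 and 2.17 CPM under the label off, against 12.8 and 12.6 CPM and then 7.83, 8.34 and 10.7 CPM under the label on. For these 2 genes the day difference under the label off (2.60 and 2.46) was the larger part. *Tubb3* was at 81.0, 118 and 111 CPM and then 36.8 and 40.9 CPM under the label off, and at 9.91 and 12.6 CPM and then 18.0, 20.3 and 15.1 CPM under the label on. The number of genes rests on single libraries.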

How the results depend on the processing

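All 27 called genes kept their direction under each alternative in which they were tested. With at least 10 counts required in every library, 26 of them were tested. As their days did not overlap, leaving out 1 library could hardly turn a direction. The adjusted p of the 27 genes ran up to 0.888, in the fit of all 35 libraries. Day 14 against day 7 under the label on gave 20 genes higher and 7 lower. It gave 169 and 76 with DESeq2, 211 and 106 without a filter on low counts, 38 and 37 with no fold threshold, 36 and 21 in the fit of all 10 primary tumor libraries, 0 and 0 in that of all 35, and 0 to 54 and 0 to 13 when 1 library was left out. The label off gave 160 and 69, 281 and 143, and 256 and 241 in the first 3 of these settings, and 0 to 219 and 0 to 102 without 1 library. The test of the difference between labels gave 51 and 152 with DESeq2, 207 and 393 without a filter, and 0 to 4 and 1 to 25 without 1 library labelled on. DESeq2 gave 9 and 1 for the difference from the liver. *Smad4* turned to 0.00169 with at least 10 counts in every library and ran from −0.10 to 0.081 without 1 library, and *Runx3* from −0.35, without replicate 1 of day 14, to 0.31. Why these counts moved was not tested.

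The mouse numbers were not treated as pairs. Deviations of libraries with the same number correlated at −0.27 and −0.28 under the label on and at −0.14 and −0.03 under the label off. With the number as a replicate block, 0 and 0 genes were called under the label on, with 658 and 946 at an unadjusted p under 0.05, 21 and 11 under the label off, and 0 and 0 for the difference between labels, with 572 and 657 at an unadjusted p under 0.05. With 2 and 3 libraries a group, the fit had 3 residual degrees of freedom, and a gene under 0.17 to 0.233 CPM rests on fewer than 3 counts.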

Other observations

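None of 36 S-phase and 35 G2 and mitosis genes was called by edgeR, with medians of 0.12 and −0.12. Those nominally higher and nominally lower (unadjusted p under 0.05) were 3 and 2 S-phase genes and 1 and 2 mitosis genes, and DESeq2 called 0 of them. *Mcm2*, a subunit of the replicative helicase, was at 76.0 and 75.4 CPM on day 7 and at 91.9, 97.2 and 90.2 CPM on day 14 (0.30, adjusted p = 0.0905, edgeR). *Top2a*, a topoisomerase of dividing cells, was at −0.36 under the label on (adjusted p = 0.15) and at −0.95 under the label off (adjusted p = 0.0267, edgeR), and the difference between labels, 0.62, did not pass (adjusted p = 0.165). The mitosis list had a median of −0.81 under the label off, and 0 of its genes passed the test of the difference between labels.

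Among genes of the unfolded protein and amino acid stress response, which raise protein folding and amino acid supply, 8 of 26 were nominally higher and 0 nominally lower, with a median of 0.26 and 0 called by edgeR, against 1 by DESeq2 (*Trib3*). *Sdf2l1*, a cofactor of folding in the endoplasmic reticulum, was at 26.4 and 31.9 CPM on day 7 and at 51.1, 45.5 and 55.3 CPM on day 14 (0.80, adjusted p = 0.0516), and *Asns*, which makes asparagine, at 0.77 (adjusted p = 0.0535, both edgeR). Hypoxia and glycolysis genes had a median of 0.29 (0.60 under the label off), with 8 of 31 nominally higher, 0 nominally lower and 0 called (1 by DESeq2, *Adm*). *Car9*, a carbonic anhydrase induced by hypoxia, was at 56.9 and 79.7 CPM and then at 129, 127 and 138 CPM (0.95, adjusted p = 0.0516, edgeR). MHC class II genes, which present antigen on macrophages and other cells, had a median of 0.71, and 4 of 7 were higher at an unadjusted p under 0.05, 0 called. This list moved with the macrophage markers, which summed to 218 and 271 CPM on day 7 and 372, 417 and 433 CPM on day 14, and their part in it was not tested. Cholesterol, fatty acid and p53 target genes had medians of −0.02, 0.07 and −0.15, with 0 called.

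Genes of signaling and invasion gave mixed values, to be set beside the 10.7% of all genes tested that were nominally higher and the 12.9% nominally lower. Of 22 RAS-MAPK feedback genes, which limit growth factor signals, 1 was nominally higher (*Erbb3*) and 7 nominally lower, with a median of −0.18. Integrins and laminins, which attach cells to the basement membrane, had 3 of 21 nominally higher and 6 nominally lower (median −0.01), and matrix metalloproteinases and their inhibitors 3 and 5 of 19 (median −0.39). Among 26 chemokines and cytokines, 4 were nominally higher and 3 nominally lower, and *Il1b*, an inflammatory cytokine, was at 23.3 and 27.7 CPM on day 7 and at 37.9, 49.4 and 50.0 CPM on day 14 (0.85, adjusted p = 0.0566, edgeR). Of 13 heat shock genes, 1 was nominally higher and 6 nominally lower, and of 9 mitochondrially encoded genes 5 and 0. By the call rule with edgeR, 0 genes of these lists were called, and DESeq2 called 3 higher and 1 lower among the integrins, laminins and metalloproteinases, 2 higher among the chemokines and 1 lower among the heat shock genes.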
